A study of Mus musculus with 2 samples.

Results

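The miR-106b-25 and miR-106a-363 clusters are the paralogues of the miR-17-92 cluster, and their 9 microRNA genes were followed in the intestine of mouse embryos. The genes were chosen by name, from the rows whose Ensembl identifier maps in the GRCm38 annotation to Mir106b, Mir93 and Mir25 on chromosome 5 or to Mir106a, Mir18b, Mir20b, Mir19b-2, Mir92-2 and Mir363 on chromosome X. All 9 were found among the 1973 genes of the tables, and all 9 had at least 10 counts in both libraries. The rule goes by gene names alone, without a threshold on any value.

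The intestines came from B6NCrl embryos of 14.5 days, an untreated strain with no engineered allele in the labels, and the series holds 2 biological replicates of this single group. The labels name each sample as a single intestine of 1 pup, yet their sex field reads pooled male and female. For the X-linked cluster, a part played by the sex of the embryos was not tested. The day of the month of collection was 17 for replicate 1 and 15 for replicate 2, so collection day and replicate cannot be told apart. The gene-strand counts summed to 15090126 in replicate 1 and 3903472 in replicate 2. Levels are given as CPM, the counts of a gene on its own strand per 1000000 such counts in that library. No correction for gene length was made, because the annotated mature strands are of nearly uniform length (21 to 23 bases for these genes). The lengths of the reads themselves were not examined. The tissue label was checked against marker lists, of which all 4 intestinal epithelial genes, 5 miR-200 genes and 2 smooth muscle genes were detected. They held 1.02 ± 0.168%, 3.90 ± 0.556% and 16.1 ± 1.55% of the counts (SD, n = 2). The 5 measured neuronal marker genes held 0.000653 ± 0.000164%, with 3 of them at 0 in both libraries. These are copies of Mir124a and Mir9, and reads that aligned to several places were assigned to no gene. Their low counts therefore cannot show that neurons were absent. Of the lists for other cell types, the 2 erythroid genes (0.0329 ± 0.0105%) and the liver gene Mir122 (0.00454 ± 0.000789%) were also detected. So were 5 of the 8 genes of pluripotent cells found under their listed names (0.0300 ± 0.000285%). Mir292, listed there as Mir292a, was detected too (2.92 CPM) but is not in that count. For striated muscle 1 of 4 measured genes was detected. The limit given for Mir124a and Mir9 also holds for the copies of Mir1a and Mir133a in the striated muscle list. In whole tissue, fewer cells of a type and less RNA per cell cannot be told apart.

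MicroRNAs repress messenger RNAs that pair with their seed, the bases 2 to 8 of the mature strand, so genes with the same seed can act on overlapping targets. The miR-17-92 cluster and its paralogues arose by duplication and combine a small set of seeds that favour proliferation and survival. Mice lacking either paralogue cluster are viable, whereas loss of miR-106b-25 together with miR-17-92 is lethal in the embryo. The miR-106b-25 genes lie inside Mcm7, which encodes a subunit of the helicase that licenses DNA replication.

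The mature strands are shown first because the seeds decide which genes are compared below. RefSeq (GRCm38.p6) held all 9 genes. The arm usually taken as the guide strand is given for each, 5′ to 3′, with the seed in capitals. The tables count both arms of a hairpin together, so the level of a single arm is not known. The strands with the miR-17 seed were these, with the miR-17-92 strands Mir17 and Mir20a for comparison.
Mir106b: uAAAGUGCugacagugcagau
Mir93: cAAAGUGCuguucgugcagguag
Mir106a: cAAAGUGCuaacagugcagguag
Mir20b: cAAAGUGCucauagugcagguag
Mir17: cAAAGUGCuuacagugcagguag
Mir20a: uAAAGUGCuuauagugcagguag

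Outside the seed these strands differ chiefly in the bases that follow it. Positions are counted from 1 at the 5′ end, and the paralogue's base is given before that of the strand it is set against. Mir106a differs from Mir17 at a single base, A10U. Mir20b differs from Mir20a at 2 bases, C1U and C10U. Mir93 differs from Mir17 at 4 bases, G10U, U11A, U12C and C13A. Over its 21 bases Mir106b differs from Mir17 at 3, U1C, G10U and A20G.

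The seed of the miR-25/92 family was carried by Mir25 of the chromosome 5 cluster and by Mir92-2 and Mir363 of the X-linked cluster. The X-linked cluster also holds the seeds of miR-18 (Mir18b) and miR-19 (Mir19b-2), which miR-106b-25 lacks.
Mir25: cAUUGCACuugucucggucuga
Mir92-2: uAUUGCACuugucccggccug
Mir363: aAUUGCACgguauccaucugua
Mir18b: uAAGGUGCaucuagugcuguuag
Mir18: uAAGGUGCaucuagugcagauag
Mir19b-2: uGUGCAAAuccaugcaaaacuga
Mir25 and Mir92-2 differ at 3 of 21 bases, whereas Mir25 and Mir363 share the seed but differ at 13 of 22. Mir18b differs from Mir18 of the miR-17-92 cluster at 2 bases, U18A and U20A.

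By assigned reads, the chromosome 5 cluster was far more abundant than the X-linked one. The X-linked sum may be too low, because Mir19b-2 and Mir92-2 yield the same mature strands as other genes, as described below. Mir106b, Mir93 and Mir25 together took 1.71% of the counts in replicate 1 (95% exact binomial interval 1.70 to 1.72%) and 1.64% in replicate 2 (1.63 to 1.65%). The 6 genes of miR-106a-363 took 0.199% (0.197 to 0.201%) and 0.198% (0.194 to 0.203%). The miR-106b-25 sum exceeded the miR-106a-363 sum 8.59-fold in replicate 1 and 8.27-fold in replicate 2 (log2 ratio 3.08 ± 0.04, SD, n = 2). The ratio was thus much larger than its gap of 0.05 between the libraries. With 2 libraries no exact test over samples can reach 0.05, so none was run. Intervals here cover counting error only, and reads without molecular identifiers are not independent molecules.

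**Figure D1:**
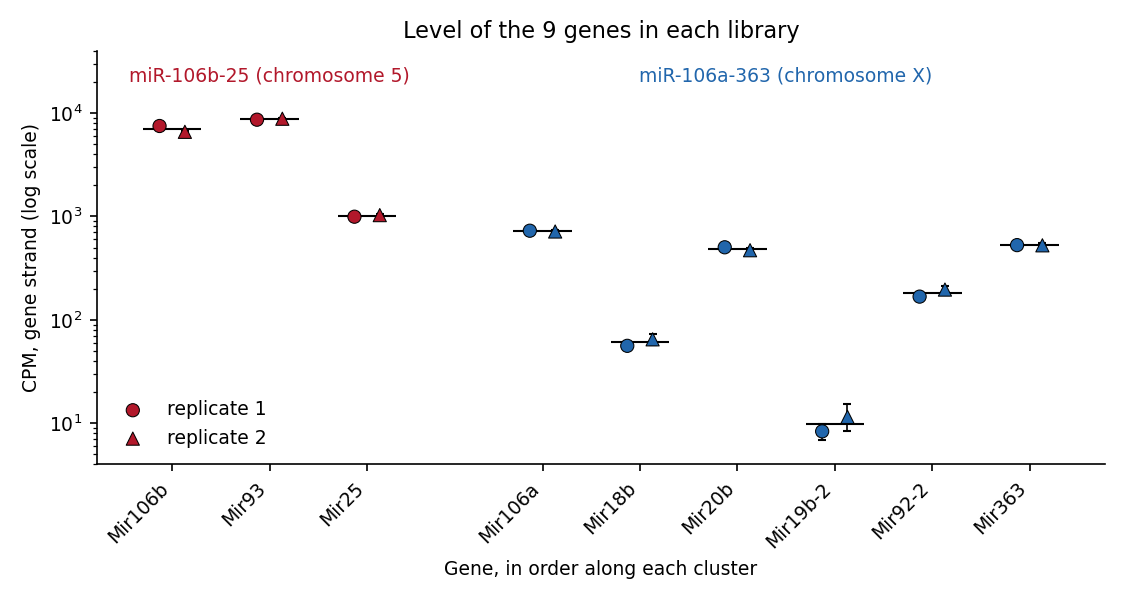
Level of each of the 9 genes in CPM (log axis), with circles for replicate 1, triangles for replicate 2, bars for the 95% exact binomial interval of each count and a line at the mean of the 2 libraries. Mir93 and Mir106b stand at 6581 CPM or more in both libraries, Mir25 at 994 and 1030 CPM, and the X-linked genes between 8.35 CPM (Mir19b-2) and 727 CPM (Mir106a).

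Within miR-106b-25 the genes with the miR-17 seed carried nearly all counts. Mir93 (ENSMUSG00000065527.1; chromosome 5, 138165523 to 138165610, minus strand), which in human cells represses the cell cycle inhibitor CDKN1A, had 8616 CPM in replicate 1 against 8807 CPM in replicate 2. It stood at rank 26 and rank 23 of the 1973 genes. Mir106b (ENSMUSG00000065514.1; 138165737 to 138165818), which shares that target, had 7489 CPM in replicate 1 against 6581 CPM in replicate 2. Mir25 (ENSMUSG00000065394.1; 138165321 to 138165404), known in human cells to repress the pro-apoptotic gene BCL2L11, had 994 CPM in replicate 1 against 1030 CPM in replicate 2. Mir93 held 52.0 ± 2.30% of the cluster's counts, Mir106b 41.9 ± 2.63% and Mir25 6.04 ± 0.325% (SD, n = 2).

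These 3 hairpins lie on the strand of Mcm7 within 498 bases. All of them fall in introns of 2 protein-coding transcripts of Mcm7. Mir93 and Mir25 also lie within an exon of a retained-intron transcript, which does not reach Mir106b. Although they share a host transcript, Mir93 exceeded Mir25 8.67-fold in replicate 1 and 8.55-fold in replicate 2. Mir93 exceeded Mir106b by less, 1.15-fold in replicate 1 and 1.34-fold in replicate 2. Ligation and PCR favour some small RNAs over others, so these are ratios of counts and not of molecules.

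Among assigned reads, 3 genes at similar levels led the X-linked cluster. Mir106a (ENSMUSG00000065456.1; chromosome X, 52742503 to 52742567, minus strand), the counterpart of Mir17, had 727 CPM in replicate 1 against 715 CPM in replicate 2. Mir363 (ENSMUSG00000070106.1; 52741693 to 52741767), the last hairpin of the cluster and without a counterpart in miR-17-92, had 528 CPM in replicate 1 against 526 CPM in replicate 2. Mir20b (ENSMUSG00000076041.1; 52742113 to 52742192), the counterpart of Mir20a, had 503 CPM in replicate 1 against 471 CPM in replicate 2. They held 36.3 ± 0.360%, 26.5 ± 0.0257% and 24.5 ± 1.08% of the cluster's counts. Their lead and these shares are uncertain, because the counts of Mir92-2 and Mir19b-2 may be too low for the reason given below.

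The other 3 X-linked genes had fewer assigned reads, and by library totals they varied more between the libraries. With TMM factors, an alternative scaling used below, Mir20b differed more (log2 0.18) than Mir92-2 (-0.14) or Mir18b (-0.13). Mir19b-2 still differed most (-0.38). Neither Mir19b-2 nor Mir18b passed the test between the libraries described below, by library totals or with TMM factors. Mir92-2 (ENSMUSG00000065613.1; 52741838 to 52741928), a source of miR-92a, had 168 CPM in replicate 1 against 196 CPM in replicate 2. Mir18b (ENSMUSG00000077111.2; 52742331 to 52742413), the counterpart of Mir18, had 56.1 CPM in replicate 1 against 64.8 CPM in replicate 2. Mir19b-2 (ENSMUSG00000065473.1; 52741983 to 52742066), a source of miR-19b, had 126 counts (8.35 CPM) in replicate 1 and 45 counts (11.5 CPM) in replicate 2. Mir106a exceeded Mir19b-2 87.1-fold in replicate 1 and 62.0-fold in replicate 2.

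The X-linked hairpins span 875 bases and lie outside other annotated genes, apart from the 5′ end of Mir106a. That hairpin overlaps the last exon of the noncoding transcript Kis2, a site of retroviral insertion in mouse leukaemia, by 3 to 5 bases. The other 5 hairpins follow downstream on the same strand. No gene of either cluster had a count on its opposite strand in either library.

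The 9 genes kept one order of assigned reads in both libraries. From high to low it ran Mir93, Mir106b, Mir25, Mir106a, Mir363, Mir20b, Mir92-2, Mir18b and Mir19b-2. For all 8 neighbouring pairs in this order the values of the 2 libraries did not overlap and the mean log2 ratio exceeded its gap between the libraries. The places of Mir92-2 and Mir19b-2 are still uncertain, because their counts may be too low in both libraries for the reason given below. Mir363 and Mir20b were the closest pair, with Mir363 1.05-fold above Mir20b in replicate 1 and 1.12-fold above it in replicate 2. Their log2 difference of 0.11 was little larger than its gap of 0.09.

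For each gene the 2 genes outside the 3 clusters that lay nearest in level were found by the distance of log2(CPM + 1) over the 2 libraries. For Mir93 they were Mir487b (8221 ± 78.5 CPM) and Mir100 (8767 ± 680 CPM), and for Mir106b they were Mir130b (7103 ± 84.3 CPM) and Mir744 (6797 ± 240 CPM). Mir25 lay beside Mir532 (1021 ± 68.8 CPM) and Mir181a-1 (1019 ± 72.4 CPM). Mir106a lay beside Mir34c and Mir674, Mir363 beside Mir195a and Mir370, and Mir20b beside Mir199b and Mir221. The neighbours of Mir92-2 were Mir138-1 and Mir1306, those of Mir18b were Mir26a-2 and Mir155, and those of Mir19b-2 were Mir147 and Mir199a-1. All distances were between 0.0446 and 0.220. Likeness over 2 libraries of one tissue describes level alone.

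The excess of miR-106b-25 over miR-106a-363 differed between the seeds. For the miR-17 seed, Mir106b with Mir93 exceeded Mir106a with Mir20b 13.1-fold in replicate 1 and 13.0-fold in replicate 2 (log2 ratio 3.70 ± 0.01). Mir106b exceeded Mir106a 10.3-fold and 9.20-fold in replicates 1 and 2, and Mir93 exceeded Mir20b 17.1-fold and 18.7-fold. For the miR-25/92 seed, Mir25 exceeded the sum of Mir92-2 and Mir363 by only 1.43-fold in both libraries (log2 ratio 0.51, 95% exact counting interval 0.48 to 0.55 in replicate 1 and 0.44 to 0.58 in replicate 2). The counts of Mir92-2 may be too low, for the reason given below, so this excess is uncertain beyond its counting interval. Mir25 exceeded Mir363 alone 1.88-fold in replicate 1 and 1.96-fold in replicate 2. The seed content of the clusters differed accordingly. Genes with the miR-17 seed held 94.0 ± 0.325% of the counts of miR-106b-25 and 60.8 ± 1.44% of those of miR-106a-363. Genes with the miR-25/92 seed held 6.04 ± 0.325% of miR-106b-25 and 35.7 ± 1.01% of miR-106a-363.

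The levels of Mir19b-2 and Mir92-2 are uncertain, because each yields the same mature strand as a gene of miR-17-92. The hairpins are shown (RefSeq, GRCm38.p6) with the longest stretch that both copies share in capitals.
Mir19b-2: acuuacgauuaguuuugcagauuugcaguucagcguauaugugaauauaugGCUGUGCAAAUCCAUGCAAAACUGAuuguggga
Mir19b-1: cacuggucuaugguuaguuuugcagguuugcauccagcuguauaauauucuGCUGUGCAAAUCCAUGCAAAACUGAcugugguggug
Mir92-2: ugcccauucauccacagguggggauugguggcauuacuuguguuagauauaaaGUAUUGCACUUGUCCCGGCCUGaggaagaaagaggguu
Mir92-1: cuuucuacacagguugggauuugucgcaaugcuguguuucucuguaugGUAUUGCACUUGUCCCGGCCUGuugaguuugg

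The shared stretch of the miR-19b pair is 25 bases long, starts 2 bases before the mature strand and ends with its last base. That of the miR-92a pair is 22 bases long, starts 1 base before the mature strand and likewise ends with it. A read of the exact mature strand therefore matches both copies equally well. Reads that aligned to several places made up 26.5% of the reads in the table of replicate 1 and 26.6% in replicate 2 and were assigned to no gene. By that rule the counts of these 4 hairpins hold no read of the exact mature strand. Which reads they do hold, and which genes the reads at several places came from, was not analysed here. The counts of the 4 hairpins may thus lie below their true level by an unknown amount. The other 7 members shared no stretch of 20 bases with any other annotated microRNA hairpin. Whether reads of near copies, such as Mir17 for Mir106a, were misassigned to them was not tested. Without Mir19b-2 and Mir92-2, miR-106a-363 held 0.180% of the counts and the log2 ratio of miR-106b-25 to it was 3.22.

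Set against the miR-17-92 cluster on chromosome 14, the paralogues contributed the smaller share of assigned reads. Both paralogue clusters together held 1.91% of the counts in replicate 1 and 1.84% in replicate 2, and miR-17-92 held 5.14% and 5.13%. Their ratio to miR-17-92 was 0.372 in replicate 1 and 0.358 in replicate 2 (log2 ratio -1.45 ± 0.04). The miR-106b-25 cluster reached 33.3% of the miR-17-92 sum in replicate 1 and 32.0% in replicate 2. For miR-106a-363 the figures were 3.87% in both libraries. Mir93, the leading paralogue, had 70.3% of the counts of Mir20a in replicate 1 and 73.2% in replicate 2, and 28.5% and 28.8% of those of Mir17.

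The X-linked genes stood at 1.01 to 5.48% of their chromosome 14 counterparts, except in the miR-19b pair. Mir106a had 2.41% of the counts of Mir17 in replicate 1 and 2.34% in replicate 2. Mir20b had 4.10% of the counts of Mir20a in replicate 1 and 3.92% in replicate 2. Mir18b had 1.01% of the counts of Mir18 in replicate 1 and 1.27% in replicate 2. Mir92-2 had 5.06% of the counts of Mir92-1 in replicate 1 and 5.48% in replicate 2. Mir19b-2 reached 31.6% of the counts of Mir19b-1 in replicate 1 and 36.9% in replicate 2, where few reads were assigned to either gene. Mir19b-1 had 26.4 CPM in replicate 1 against 31.3 CPM in replicate 2. The miR-19b and miR-92a ratios compare copies with the same mature strand and are uncertain for the reason given above.

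**Figure D2:**
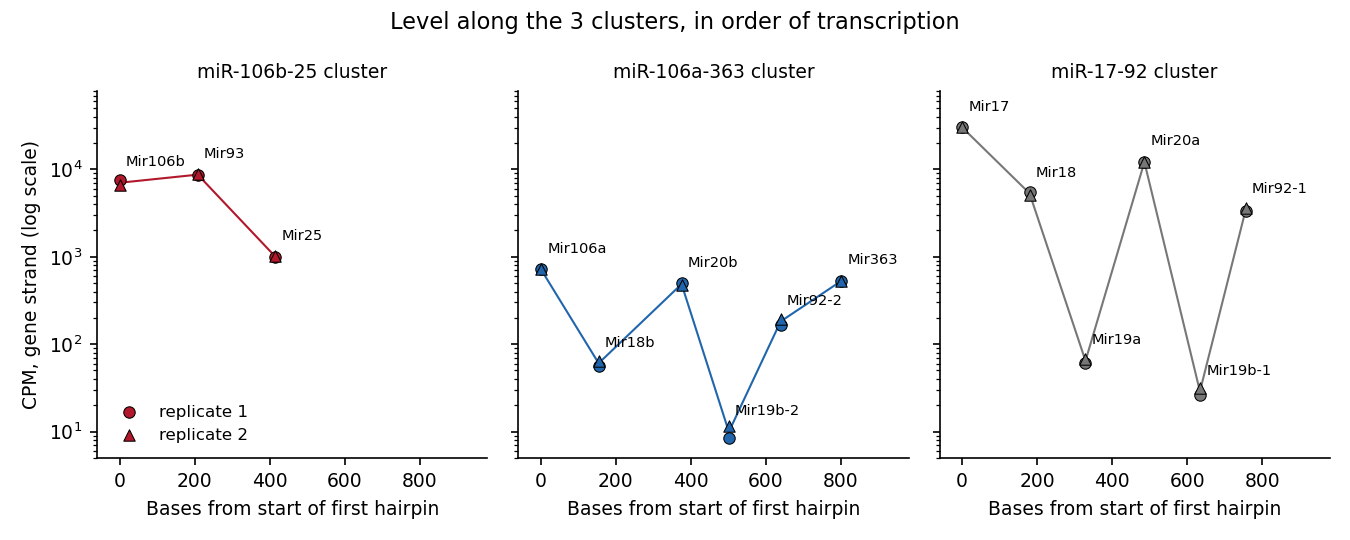
Level in CPM (log axis) against the distance in bases from the start of the first hairpin, for miR-106b-25, miR-106a-363 and miR-17-92, with circles for replicate 1, triangles for replicate 2 and a line through the means. By assigned reads, the X-linked profile falls at Mir18b and Mir19b-2, and the chromosome 14 profile falls at Mir19a and Mir19b-1. The miR-19b and miR-92a genes may be undercounted.

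By assigned reads, both 6-gene clusters were led by the same position and lowest at the same gene, as the plot along the clusters shows. The miR-19b and miR-92a genes may be undercounted, because reads matching both copies were assigned to no gene. The order is therefore uncertain where it involves them. The first hairpin, Mir106a or Mir17, led its cluster with 36.3 ± 0.360% or 59.1 ± 0.511% of its counts. The miR-19b gene was the lowest in both, at 0.500 ± 0.114% of miR-106a-363 and 0.0562 ± 0.00666% of miR-17-92. Mir19a, whose mature strand differs from that of Mir19b-2 at a single base (C11U), had 60.8 CPM in replicate 1 against 68.1 CPM in replicate 2. How far lost reads lowered the miR-19b counts was not tested. The clusters differed at the miR-18 gene, which held 3.04 ± 0.317% of miR-106a-363 and 10.3 ± 0.607% of miR-17-92.

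The paralogues contributed unequally to the 4 seed families. Of the 6 genes with the miR-17 seed, the 4 paralogues held 29.0% of the family's counts in replicate 1 and 28.0% in replicate 2, of which miR-106a-363 gave 2.06% and 2.01%. Of the miR-25/92 family, the 3 paralogues held 32.2% in replicate 1 and 31.5% in replicate 2. That share rests on Mir92-1 and Mir92-2, whose counts may be too low, so whether the paralogues are the smaller part of this family is uncertain. With both left out it was 86.7% (mean of the 2 libraries). A large share was bound to follow there, because Mir92-1 is the only miR-17-92 gene of the family, so that value cannot settle the question. Here miR-106b-25 gave 18.9% and 18.5%, and miR-106a-363 gave 13.2% and 13.0%. Mir18b held 1.00% of the miR-18 family in replicate 1 and 1.26% in replicate 2. Mir19b-2 held 8.74% of the miR-19 family in replicate 1 (95% exact interval 7.33 to 10.3%) and 10.4% in replicate 2 (7.68 to 13.7%). This share rests on Mir19b-1 and Mir19b-2, whose counts may also be too low.

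**Figure D3:**
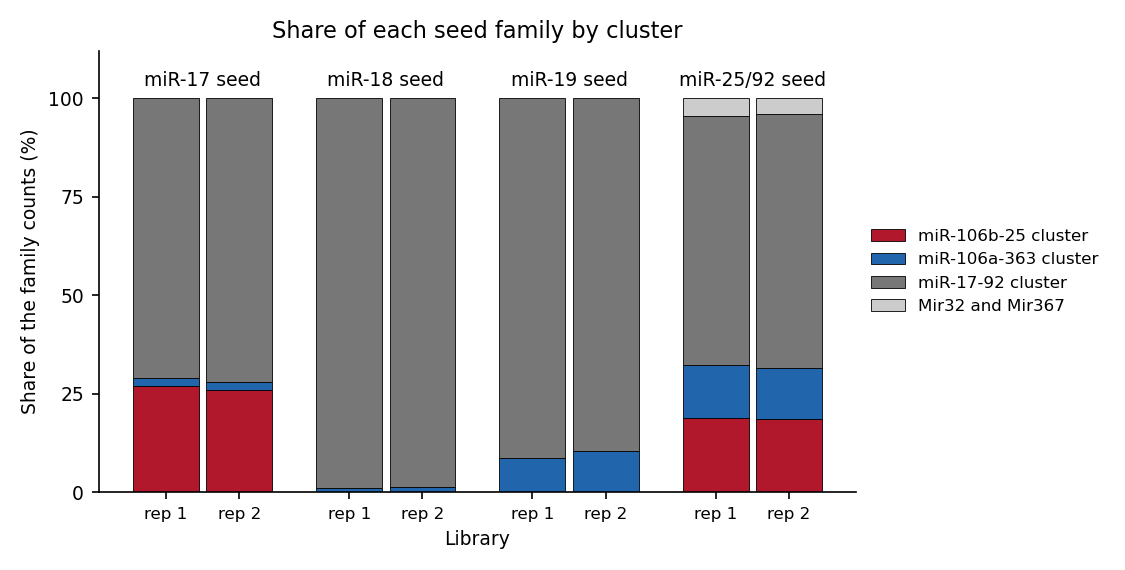
Share of the counts of each seed family, in percent, held by miR-106b-25, miR-106a-363, miR-17-92 and the genes Mir32 and Mir367, with a bar for each library. The paralogue clusters fill 28.5 ± 0.690% of the miR-17 family and 1.13 ± 0.180% of the miR-18 family (SD, n = 2). Their 31.8 ± 0.472% of the miR-25/92 family is uncertain, because Mir92-1 and Mir92-2 share their mature strand. It becomes 86.7% with both left out, which also removes the only miR-17-92 gene of that family.

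By assigned reads the families themselves were of very different size. The miR-19 and miR-25/92 totals include the miR-19b and miR-92a genes, whose counts may be too low, so the sizes of these families are uncertain. The miR-17 family held 5.95 ± 0.0450% of all counts, miR-25/92 held 0.541 ± 0.0218%, miR-18 held 0.537 ± 0.0309% and miR-19 held 0.0103 ± 0.00109%. Outside the 3 clusters, the miR-25/92 seed is also carried by Mir32, with 245 CPM in replicate 1 against 225 CPM in replicate 2, and by Mir367, with 0 counts in both. The count of 0 allows Mir367 up to 0.199 CPM in replicate 1 against 0.769 CPM in replicate 2, a limit of 3 counts. Mir25 exceeded Mir32 4.05-fold in replicate 1 and 4.57-fold in replicate 2. A search of the RefSeq mature strands found 2 further genes with these seeds, Mir92b (miR-25/92 seed, 84.7 ± 0.985 CPM) and Mir6383 (miR-17 seed, 0 counts in both libraries).

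Between the 2 libraries the levels of the paralogues differed little. A two-sided exact binomial test asked whether the 2 counts of a gene split as the library totals do, with p adjusted by Benjamini-Hochberg over the 363 genes with at least 10 counts in both libraries. This compares these libraries and not conditions. Of the 9 members 4 passed an adjusted p of 0.05, a share near the 43.8% of all genes tested that did so. Higher in replicate 1 were 2 of 9 members, against 14.0% of all genes tested, and lower were 2 of 9, against 29.8%. The split turned with the scaling. With TMM factors 5 members were called higher in replicate 1 and 1 lower, against 23.1% and 16.0% of all genes tested. With DESeq2 size factors 5 were called higher and 0 lower, against 24.8% and 14.9%. By library totals the median absolute log2 difference was 0.09 over the members and 0.15 over all genes tested. The members and all genes were not matched for level, and counting error is larger for genes with few counts.

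Mir106b had the clearest difference, 1.14-fold higher in replicate 1 (log2 0.19, 95% exact counting interval 0.17 to 0.21, adjusted p = 6.01e-79 by the exact binomial test). Mir20b was also higher in replicate 1 (log2 0.09, adjusted p = 0.0297, exact binomial test). Mir92-2 was lower in replicate 1 (log2 -0.23, adjusted p = 0.000565 by the exact test), a call that DESeq2 size factors ended (adjusted p = 0.0624). Mir93 was lower in replicate 1 by library totals (log2 -0.03, adjusted p = 0.000965, exact binomial test) but higher with TMM factors (0.05) or DESeq2 size factors (0.06). Mir19b-2 showed the largest log2 difference of the members, -0.47, yet its counting interval of -0.97 to 0.06 included no difference. Mir25, Mir106a, Mir18b and Mir363 did not pass either, with log2 values of -0.05, 0.02, -0.21 and 0.01. Mir106a and Mir363 passed as higher in replicate 1 with TMM factors (adjusted p = 0.00145 and 0.0347, exact binomial test) and with DESeq2 size factors, and the sign of Mir25 turned with either.

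As a whole, miR-106b-25 was 1.04-fold higher in replicate 1 (log2 0.06, counting interval 0.05 to 0.07). For miR-106a-363 the log2 difference was 0.004, with an interval of -0.03 to 0.04. For the miR-17-92 cluster it was 0.001. The marker lists moved between the same libraries. Smooth muscle genes held 17.2% of the counts in replicate 1 and 15.0% in replicate 2, miR-200 genes 3.50% and 4.29%, and intestinal epithelial genes 0.898% and 1.14%. Their part in the differences was not tested. Replicate 1 was 3.87 times deeper than replicate 2, so the counts of replicate 2 limited these intervals.

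**Figure D4:**
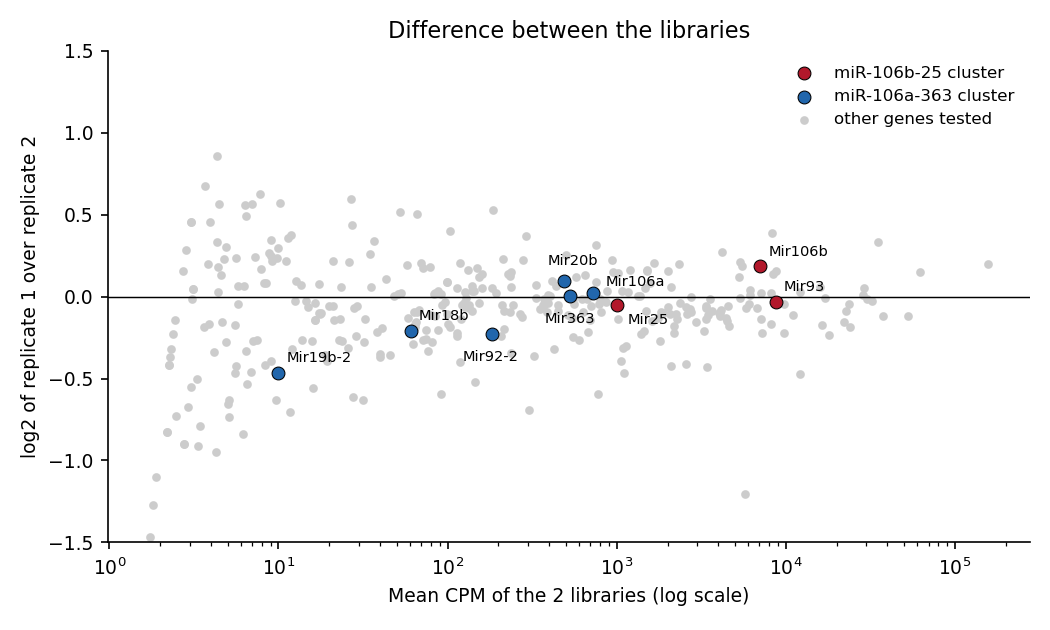
Log2 of replicate 1 over replicate 2 against the mean CPM of the 2 libraries (log axis) for the genes tested, with the members of miR-106b-25 and miR-106a-363 in colour and other genes in grey. The members lie between -0.47 (Mir19b-2) and 0.19 (Mir106b), and 4 other genes fall outside the plotted range of 1.5 either way.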

How the data were processed

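Small RNA of 2 embryonic intestines was sequenced, and 1 table per library was deposited with raw counts of reads per gene in 3 columns, for both strands together, the strand of the gene and the strand opposite to it. That reading rests on the values, as the last 2 columns add up to the other in all gene rows. Per the files that accompany the tables, mm10 was the assembly and GENCODE M4 the annotation. The aligner, trimming and counting program are not given in the sources used here. Unused were reads that were unaligned (12.4% and 13.8% of the reads in the tables of replicates 1 and 2), aligned to several places (26.5% and 26.6%) or on no gene of either strand (2.20% and 2.10%). Reads on the strand opposite to a gene entered the levels only where both strands were counted.

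Identifiers were matched to GENCODE M21 (GRCm38, the assembly also called mm10), which held 1894 of 1973 and all 9 members in the same version. Gene-strand counts were divided by their total over gene rows to give CPM. Shares and ratios carry 95% exact binomial intervals (scipy 1.17.1). TMM factors (edgeR 4.0.16) and size factors (DESeq2 1.42.0) were alternatives. The genes named are all members, the 6 genes of miR-17-92, Mir32, Mir367 and the 2 genes nearest each member in level. Mir92b and Mir6383 were added from the seed search. Members and lists were chosen with earlier results of these data known.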

Additional observations from a re-analysis of the deposited data

How the results depend on the processing

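Under the alternatives run, neither the log2 ratio of miR-106b-25 to miR-106a-363 nor that of both clusters to miR-17-92 changed sign, but the paralogues held the larger part of the miR-25/92 family when sharing genes were left out. With both strands counted the share of miR-106b-25 was 1.63% and that of miR-106a-363 was 0.193%, against 1.68% and 0.199%. The members' own counts were the same under that setting, as none had opposite-strand counts, and only the total grew. Over all reads in the tables the shares were 0.947% and 0.112%. Leaving out Mir19b-2 and Mir92-2, which share a 20-base stretch, gave miR-106a-363 0.180% and a log2 ratio of miR-106b-25 to it of 3.22, against 3.08. Mir106a, Mir20b and Mir363 alone, a set chosen after seeing the data, gave 3.27. Without sharing genes the log2 ratio of both paralogue clusters to miR-17-92 was -1.37, against -1.45. The paralogues' share of the miR-25/92 family was then 86.7%, against 31.8%, because Mir92-1 leaves the family too. With Mir92b added to the family, also chosen after seeing the data, it was 31.3%. No share of the miR-19 family could be had without sharing genes, since its only member here shares sequence. Without either replicate, the log2 ratio of miR-106b-25 to miR-106a-363 was 3.05 to 3.10 and that of both clusters to miR-17-92 was -1.48 to -1.43. Members called between the libraries numbered 4 of 9, against 43.8% of all genes tested. They numbered 6 with TMM factors (39.1% of all genes), 5 with DESeq2 size factors (39.7%), 4 with both strands (45.2%) and 3 with all genes that had a count (19.8%). TMM factors moved the median log2 difference of all genes tested to 0.02, and DESeq2 size factors to 0.04, against -0.06 with library totals. The sign of Mir93 and of Mir25 changed with either. No paired analysis was possible because there is only 1 group. Depth limits Mir19b-2 most, with 45 counts in replicate 2.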
